A study of Mus musculus with 4 samples.

Results

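Dividing lymphatic endothelial cells were examined in the ear skin of mice at postnatal day 8. A cell counted as lymphatic when its RNA held 3 or more unique molecular identifiers (UMIs, the tags that mark single captured RNA molecules) summed over Prox1, Mmrn1 and Reln. It counted as dividing when it also held 3 or more UMIs summed over Mki67 and Top2a. The rule gave 136 cells, 40 in library 1 and 96 in library 2, of the 3750 cells with 500 or more detected genes and at most 10% mitochondrial UMIs. The members were thus chosen by measured values, the UMIs of these 5 genes. They were set against 710 non-dividing lymphatic cells, 251 and 459, that met the lymphatic rule and had no UMI of Mki67 or Top2a. Since these genes selected the cells, their own levels are described without a test.

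The study sorted live CD31+ cells that carried the Cdh5CreERT2-Rtom reporter, an endothelial label, from ears of C57BL/6 mice, and sequenced them by 10x Genomics 3' single-cell RNA-seq. Each of 2 biological replicates gave 1 mRNA library and 1 antibody tag library (CITE-seq), in which DNA-barcoded antibodies report the surface proteins ICAM1, VCAM1, CXCR4, VEGFR2 and CD45. All libraries belong to 1 group, neonatal ears with the same reporter and age, so the comparisons here are between classes of cells within a library. The labels do not say how many mice went into a library, and the sort on CD31 and the reporter sets which cells could be seen.

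Lymphatic vessels grow in early postnatal skin by division of the endothelial cells that line them. Blunt-ended capillaries, marked by the hyaluronan receptor Lyve1, take up tissue fluid and drain into collecting vessels, whose flow is kept one-way by valves. A cell that enters the cycle passes through G1 under control of cyclin D and the Rb and E2F proteins, copies its DNA in S phase, and separates the copies on a spindle in mitosis.

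The mRNA libraries held 1745 and 2877 barcodes with 15989249 and 26675353 UMIs, of which 1500 and 2250 barcodes passed the filter with medians of 8461 and 9006.5 UMIs. The libraries shared 3 barcodes, 1 of them kept, and none of these was a dividing lymphatic cell. Blood endothelial cells served as a second cell type for comparison: 1014 and 1363 cells had 3 or more UMIs of Pecam1 and Cdh5, no UMI of the lymphatic genes and fewer than 3 of pericyte or immune genes. Of these, 124 and 200 were dividing and 814 and 1010 non-dividing by the same rule.

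Dividing lymphatic cells had more captured UMIs than non-dividing ones. Their median was 18023 UMIs in library 1 and 19234 in library 2, against 8332 and 8964 in non-dividing lymphatic cells, and they had medians of 4524.5 and 4670 detected genes against 2968 and 2995. Dividing blood endothelial cells were also deeper, with medians of 13192 and 13345 UMIs against 7239 and 7375.5. The shares of cells with a UMI of a named marker are therefore also given after each cell was thinned at random to 5000 UMIs. The rule counts raw UMIs, so deeper cells meet it more easily, and no doublet caller was run. The part of either in the difference in depth was not tested.

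The genes that chose the cells sat well above their thresholds. The sum of Mki67, a protein of the mitotic chromosome surface, and Top2a, which untangles replicated DNA, had a median of 22.5 UMIs in library 1 and 15 in library 2, and a maximum of 63 in both. Just inside the threshold, 3 and 8 cells had a sum of 3, and 1 and 5 cells had a sum of 4. Just outside it, 3 and 18 lymphatic cells had a sum of 2, and 11 and 39 had a sum of 1. These in-between cells entered neither class, and their median of UMIs per cell lay between those of the classes, at 11762 and 13416 for a sum of 2.

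The lymphatic sum that chose the dividing cells had medians of 29 and 28 UMIs and minima of 7 and 5. As part of the rule, it describes the cells and is no separate support. The dividing cells also carried lymphatic markers that took no part in the rule. Flt4, the receptor of the lymphatic growth factor VEGF-C, had a UMI in 100% and 99.0% of dividing cells, and the lymphatic chemokine Ccl21a in 95% and 99.0%. In dividing blood endothelial cells the same shares were 29.8% and 28.5% for Flt4 and 5.65% and 12% for Ccl21a. The rule for that class allowed no UMI of Prox1, Mmrn1 or Reln. After thinning, with cells kept in the class that their full counts gave, Flt4 was detected in 87.5% of dividing lymphatic cells of either library against 14.9% and 13.1% of dividing blood endothelial cells, and Ccl21a in 90% and 97.9% against 1.65% and 3.03%.

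Blood endothelial genes were also present in some dividing lymphatic cells. Flt1, a blood endothelial receptor, had a UMI in 7.5% and 9.38% of them (5% and 5.21% thinned), against 96% and 97% (81.0% and 79.3% thinned) of dividing blood endothelial cells. Plvap, a protein of endothelial pores, had one in 45% and 52.1% (37.5% and 29.2% thinned), against 52.3% and 27.1% of thinned non-dividing lymphatic cells. Cd34, a sialomucin, had one in 32.5% and 46.9% (15% and 26.0% thinned), against 10.4% and 13.2% of thinned non-dividing lymphatic cells. Of the 3, Cd34 was higher in dividing than in non-dividing cells in both libraries at equal depth, with overlapping intervals in library 1.

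In library 1, 13.1% of lymphatic cells were dividing (40 of 305, exact 95% interval 9.54% to 17.4%), and in library 2, 15.7% (96 of 612, 12.9% to 18.8%). The shares among blood endothelial cells were 12.2% (10.3% to 14.4%) and 14.7% (12.8% to 16.7%). When the classes were drawn anew from thinned counts, 10.9% and 10.6% of lymphatic cells were dividing, against 9.72% and 12% of blood endothelial cells. The lymphatic and blood intervals overlapped in both libraries, with and without thinning. Among lymphatic cells with at most 5% mitochondrial UMIs the dividing shares were higher, at 17.9% and 25.5%. These intervals, as all others on shares of cells, are exact Clopper-Pearson intervals and cover counting error only.

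**Figure D1:**
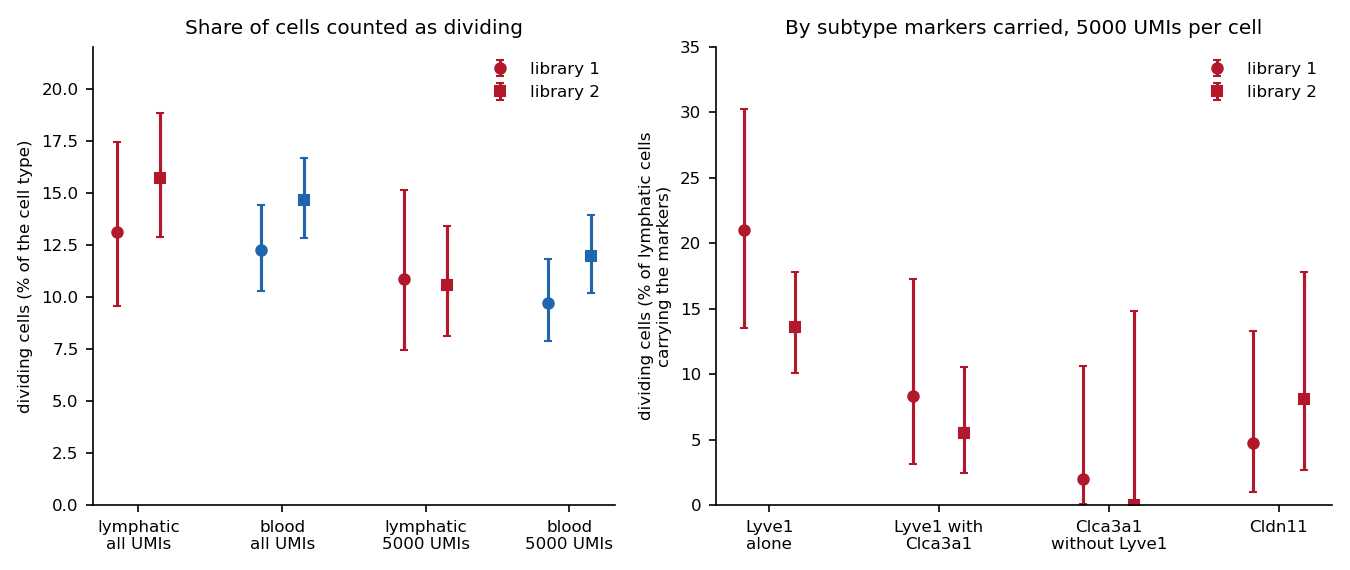
Left, share of lymphatic (red) and blood endothelial (blue) cells that were dividing in library 1 (circles) and library 2 (squares), with all UMIs and after thinning to 5000 UMIs; right, share of dividing cells among thinned lymphatic cells that carried the named markers. Bars are exact 95% intervals for counting error. The left shares overlap throughout, while the right shares are highest for cells with Lyve1 alone, at 21% and 13.6%.

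Dividing lymphatic cells mostly carried the capillary marker and often lacked the others. Lyve1 (chr7:110850607-110863239, minus strand, mm10) had a UMI in 92.5% of dividing cells of library 1 and 99.0% of library 2, against 67.7% and 92.2% of non-dividing lymphatic cells. Clca3a1 (chr3:144729677-144760977, minus strand), a marker of collecting vessels, had one in 40% and 28.1% of dividing cells against 65.3% and 50.1%. Cldn11 (chr3:31149920-31164324, plus strand), a tight junction gene of valve cells, had one in 20% and 19.8% against 31.9% and 15.3%, so its order differed between libraries. In blood endothelial cells the shares ranged from 0% to 2.08% for Lyve1, 2.42% to 5.65% for Clca3a1 and 0.297% to 3.32% for Cldn11, and after thinning from 0% to 0.878%, 0.826% to 4.52% and 0% to 2.96%. That class was required to hold no UMI of Prox1, Mmrn1 or Reln.

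At equal depth the same pattern held for Lyve1 and Clca3a1. In thinned cells kept in the class of their full counts, an alternative added after seeing the data, Lyve1 was detected in 92.5% and 97.9% of dividing cells against 66.8% and 91.0%. Clca3a1 was detected in 30% and 17.7% against 54.4% and 40.1%, and Cldn11 in 10% and 8.33% against 25.3% and 11.6%. Thus all 3 markers kept 1 order in both libraries once depth was equal, and the gap for Lyve1 was wider in library 1, where fewer non-dividing cells carried it. The intervals of the classes did not overlap for Clca3a1 in either library and overlapped for Cldn11 in both. This comparison used all 40 and 96 dividing cells and the 241 and 431 non-dividing cells with 5000 or more UMIs.

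Read the other way, of the 4 marker sets compared the share of dividing cells was highest among lymphatic cells that carried Lyve1 alone. With classes and markers both drawn from thinned counts it was 21% (21 of 100, interval 13.5% to 30.3%) in library 1 and 13.6% (45 of 330, 10.1% to 17.8%) in library 2. It was 8.33% and 5.52% among cells with both Lyve1 and Clca3a1. Among cells with Clca3a1 and no Lyve1 it was 2% (1 of 50) and 0% (0 of 23, interval up to 14.8%), and among cells with Cldn11 it was 4.76% and 8.06%. Cells with none of the 3 markers were few, with 0 of 5 and 1 of 7 dividing. With all UMIs the shares for Lyve1 alone were 26.2% and 19.9%, for both markers 12.4% and 8.56%, and for Cldn11 8.70% and 19.4%, so that cells with Cldn11 stood level with Lyve1-alone cells in library 2 before thinning. The intervals of Lyve1-alone cells and of cells with both markers overlapped in both libraries, in library 2 only between 10.1% and 10.6%. In unthinned cells, the marker sets Lyve1 alone, both markers, Clca3a1 without Lyve1, and Cldn11 made up 52.5%, 27.5%, 5% and 20% of the dividing cells of library 1 and 63.5%, 16.7%, 0% and 19.8% of those of library 2. Lyve1-alone cells made up 20.3% and 44.7% of non-dividing lymphatic cells. Cells with Cldn11 and Clca3a1 but no Lyve1 fall in both of the last sets.

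Levels, in place of detection, gave the same order for Clca3a1 and Cldn11. UMIs were summed over the cells of each class and library and are given as CPM (counts scaled to 1000000 per class) after normalisation. Clca3a1 was at 49.7 and 41.2 CPM in dividing cells and 224 and 131 CPM in non-dividing lymphatic cells, a log2 change of -1.90 (SE 0.19, adjusted p = 8.31e-06). Cldn11 was at 26.1 and 15.1 CPM against 171 and 44.1 CPM, a log2 change of -2.13 (SE 0.301, adjusted p = 0.000207), and this call was lost in DESeq2's Wald test and without the library term. Without library 1 its log2 change was -1.54. Both genes were lower in dividing cells of both libraries, and the classes did not overlap. The level of Lyve1 did not pass, at 2081 and 1798 CPM against 1445 and 2220 CPM (log2 change 0.11, adjusted p = 0.695): it was higher in dividing cells in library 1 and lower in library 2.

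Across all genes, dividing lymphatic cells were compared with non-dividing ones by edgeR's quasi-likelihood test on these sums, with class and library as terms and all 4 classes of endothelial cells in the fit. Of 11106 genes tested that had no part in choosing cells, 1408 were higher (12.7%) and 886 lower (7.98%) at an adjusted p under 0.05, and the median log2 change of all genes was -0.01. The cell cycle lists below describe what kind of cell the rule picks and are no independent finding, and genes almost silent outside division could be tested only through the dividing classes. The lists were chosen with earlier results known, so each is given by its counts beside these background shares. Of the 1408 higher genes, 207 were in the 7 cell cycle lists. The counts fell to 879 higher and 554 lower in DESeq2's Wald test, to 566 and 331 in cells thinned to 5000 UMIs and to 564 and 259 in cells with at most 5% mitochondrial UMIs.

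**Figure D2:**
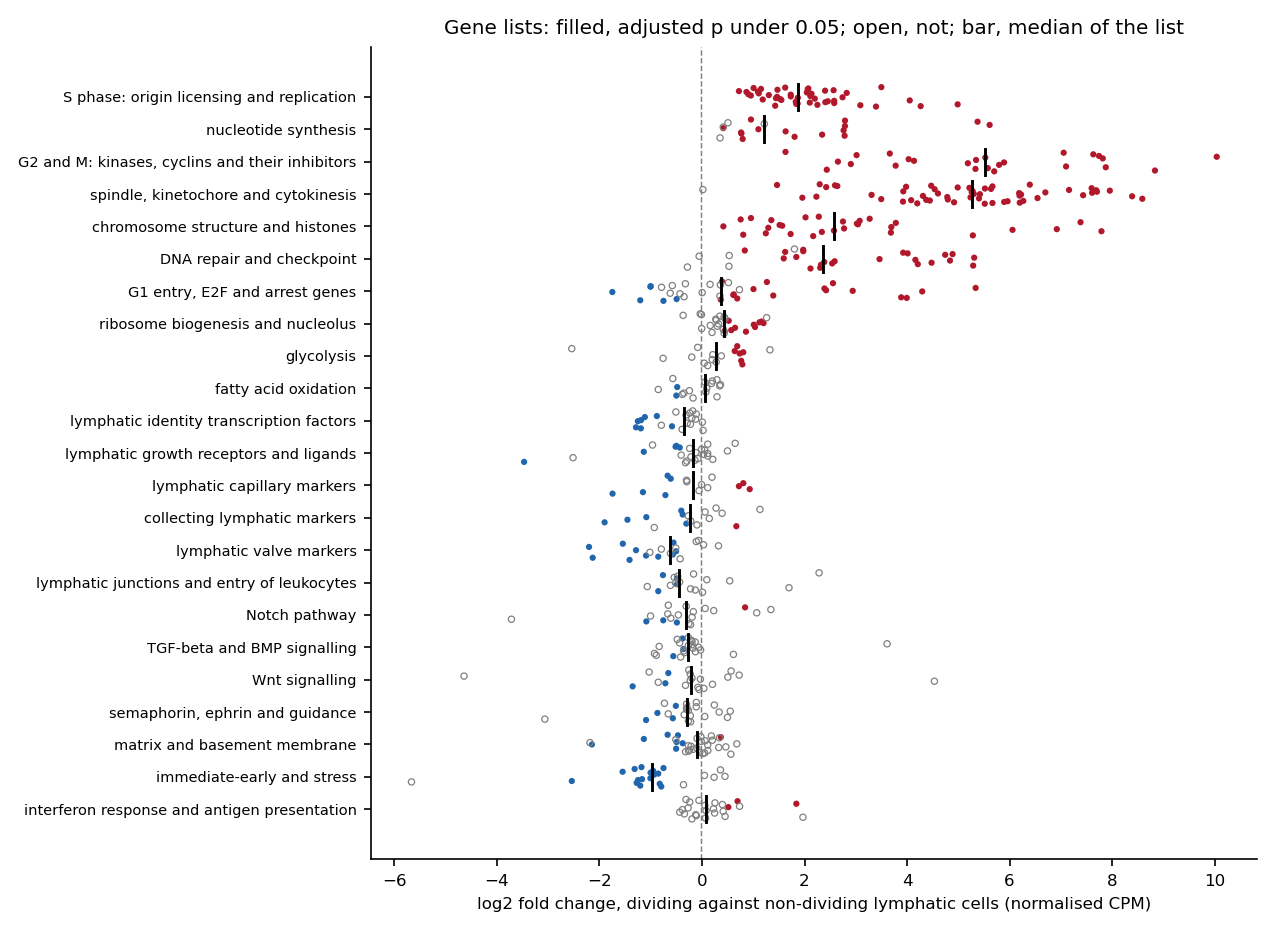
Log2 fold change of dividing against non-dividing lymphatic cells for each tested member of the gene lists (horizontal axis; filled red or blue, adjusted p under 0.05; open, not passed; black bar, median of the list; dashed line, median of all genes). The G2 and M and the spindle lists have medians of 5.53 and 5.27, the S phase list 1.87, and the lists of lymphatic valve and immediate-early genes lie below 0, at -0.61 and -0.98.

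Genes of mitosis rose most. All 25 kinases, cyclins and their inhibitors were higher, with a median log2 change of 5.53, and 55 of 56 spindle, kinetochore and cytokinesis genes were higher, with a median of 5.27. Ccna2, the cyclin of S phase and G2, was at 244 and 170 CPM in dividing cells and 0.767 and 0.828 CPM in non-dividing lymphatic cells (log2 change 7.87, SE 0.236, adjusted p = 9.47e-11). Ccnb1, the mitotic cyclin, was at 164 and 174 CPM against 0.384 and 1.66 CPM (log2 change 7.10, adjusted p = 5.45e-10). Without library 1 these changes were 7.06 and 6.36. Cdk1, the kinase both cyclins bind, was at 445 and 357 CPM against 3.84 and 8.28 CPM (log2 change 5.89). The 55 spindle genes included Prc1, which bundles the midzone microtubules, at 419 and 310 CPM against 2.69 and 2.28 CPM (log2 change 7.16), and Birc5, a subunit of the chromosomal passenger complex, at 542 and 526 CPM against 6.52 and 7.66 CPM (log2 change 6.2). Ube2c, the ubiquitin-conjugating enzyme of the anaphase-promoting complex, reached 731 and 633 CPM against 6.14 and 9.1 CPM (log2 change 6.39).

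Several mitotic genes were near silence in non-dividing lymphatic cells. The sums of Aurkb, a mitotic kinase, held 134 and 233 UMIs in dividing cells and 0 and 2 UMIs in the much larger sums of non-dividing cells. For Hmmr, a spindle protein, they held 127 and 268 against 0 and 3 UMIs, and for the kinase Plk1 90 and 139 against 0 and 3 UMIs. With 3 or fewer UMIs over both libraries in the non-dividing class, no fold is given for these genes. The folds of Ccna2 and Ccnb1 also rest on few UMIs there, 2 and 4 for Ccna2 and 1 and 8 for Ccnb1. The spindle gene that did not pass was Pttg1, the separase inhibitor securin, with a log2 change of 0.02. It was singled out after its value was seen.

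The promoters of these genes show what the mitotic list shares that the rule did not use. Many genes expressed late in the cycle carry, near their start sites, the cell cycle homology region, here searched as TTTGAA or as its variant TTTAAA. They also carry the CCAAT box, the sequence bound by NF-Y. The 150 bases before the RefSeq start site (GRCm38.p6) are printed 5' to 3' on the gene's strand. Capitals mark these 3 motifs, and GCGGGAA, on either strand. Cdk1 lies at chr10:69352913-69353062 on the minus strand, Ccnb1 at chr13:100786487-100786636 on the minus strand and Ube2c at chr2:164769779-164769928 on the plus strand. They were among the members of these lists with the smallest p in the fit.
Cdk1: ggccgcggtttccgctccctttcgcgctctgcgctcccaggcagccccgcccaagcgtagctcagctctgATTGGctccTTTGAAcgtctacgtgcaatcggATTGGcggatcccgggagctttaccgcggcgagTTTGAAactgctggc
Ccnb1: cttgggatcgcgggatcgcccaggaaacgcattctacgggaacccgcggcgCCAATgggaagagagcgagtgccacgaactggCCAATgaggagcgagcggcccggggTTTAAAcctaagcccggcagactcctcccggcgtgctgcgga
Ube2c: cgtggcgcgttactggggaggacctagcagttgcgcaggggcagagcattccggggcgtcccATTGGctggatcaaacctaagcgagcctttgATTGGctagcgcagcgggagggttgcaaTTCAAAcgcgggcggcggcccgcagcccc
Each of the 3 windows held 2 CCAAT boxes and at least 1 TTTGAA or TTTAAA, while the same window of Birc5 held none of the letters searched.

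Among the 63 members of the mitotic and spindle lists with a single RefSeq promoter entry, 58.7% had TTTGAA on either strand between 250 bases before and 50 after the start, against 11.5% of the 6876 tested genes with such an entry and 18.5% of all 22862 promoters. TTTAAA was in 19.0% of the list against 8.83% of tested genes, and CCAAT in 71.4% against 39.7%. GCGGGAA, a form of the E2F motif, was in 6.35% of the list against 9.45% of tested genes. A match is a description of the sequence and not evidence of binding.

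DNA replication genes rose together by smaller amounts. All 45 genes of origin licensing and replication were higher, with a median log2 change of 1.87, between 0.72 for the clamp loader subunit Rfc3 and 4.99 for Clspn. Clspn, which links replication forks to the checkpoint kinase, was at 118 and 93.8 CPM against 2.69 and 3.52 CPM (SE 0.267, adjusted p = 1.49e-08). Cdc45, a subunit of the replicative helicase, was at 54.7 and 49.0 CPM against 4.22 and 5.17 CPM (log2 change 3.39), and the ligase Lig1 at 170 and 150 CPM against 22.6 and 29.2 CPM (log2 change 2.58). Unlike the mitotic genes above, Lig1 and many members of this list were well detected in non-dividing cells.

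The replication promoters held other letters. Of the 32 members with a single entry, 46.9% had GCGGGAA, against 9.45% of tested genes and 4.60% of all promoters, and 65.6% had CCAAT, but 9.38% had TTTGAA. Chaf1a, a histone chaperone of the replication fork (chr17:56040266-56040415 on the plus strand), and Rpa2, a single-strand DNA binding protein (chr4:132768210-132768359 on the plus strand), were the members with the smallest p that held GCGGGAA in the 150 bases before the start.
Chaf1a: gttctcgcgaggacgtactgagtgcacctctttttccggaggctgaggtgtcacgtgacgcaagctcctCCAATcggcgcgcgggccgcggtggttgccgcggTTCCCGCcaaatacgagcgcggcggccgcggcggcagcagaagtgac
Rpa2: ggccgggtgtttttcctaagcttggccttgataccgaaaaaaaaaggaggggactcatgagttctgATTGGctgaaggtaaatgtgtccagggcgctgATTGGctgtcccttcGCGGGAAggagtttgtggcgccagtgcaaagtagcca
In the first window the motif is on the opposite strand, as TTCCCGC, and in the second on the gene's strand, 37 bases before the start.

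Nucleotide supply, chromosome structure and DNA repair moved the same way. Of 19 tested genes of nucleotide synthesis, 15 were higher and none lower, with a median log2 change of 1.22; Rrm2, the cell cycle-regulated subunit of ribonucleotide reductase, was at 262 and 139 CPM against 1.15 and 5.17 CPM (log2 change 5.61, adjusted p = 3.23e-08) and thymidine kinase Tk1 at 282 and 147 CPM against 3.07 and 5.59 CPM (log2 change 5.37). Without library 1 these changes were 4.62 and 4.60, and without library 2 they were 7.20 and 6.25. All 29 tested genes of chromosome structure and histones were higher, with a median of 2.57, among them the condensin subunit Smc2 at 419 and 331 CPM against 37.6 and 38.5 CPM (log2 change 3.27). Of 28 repair and checkpoint genes 23 were higher, with a median of 2.35, and the deubiquitinase Usp1 was at 169 and 120 CPM against 36.4 and 34.6 CPM (log2 change 1.97). The repair genes that did not pass included the checkpoint kinases Atm and Atr.

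Histone H1 gene Hist1h1b was at 585 and 291 CPM in dividing cells and 1.92 and 1.66 CPM in non-dividing ones (log2 change 7.79, adjusted p = 2.72e-11). Replication histones have near-identical copies and mostly lack poly(A) tails, so their counts in a poly(A)-primed library are uncertain. The largest rises outside the 7 lists were also of genes known from the cycle: Pimreg at 143 and 150 CPM against 0.384 and 2.07 CPM (log2 change 6.61), the DNA glycosylase Neil3 at 129 and 92.2 CPM against 0.767 and 1.24 CPM (log2 change 6.57), and Pclaf, a partner of the sliding clamp, at 621 and 445 CPM against 4.99 and 11.6 CPM (log2 change 5.81). Without library 1 the changes of Hist1h1b, Pimreg, Neil3 and Pclaf were 7.10, 5.89, 5.77 and 5.19, and that of Pclaf was 6.79 without library 2. Non-dividing cells held only 1 and 10 UMIs of Pimreg and 2 and 6 of Neil3. The licensing inhibitor Gmnn rose by a log2 change of 3.13 and the anaphase-promoting complex inhibitor Fbxo5 by 4.87, or by 4.17 and 5.56 without library 1 or 2.

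**Figure D3:**
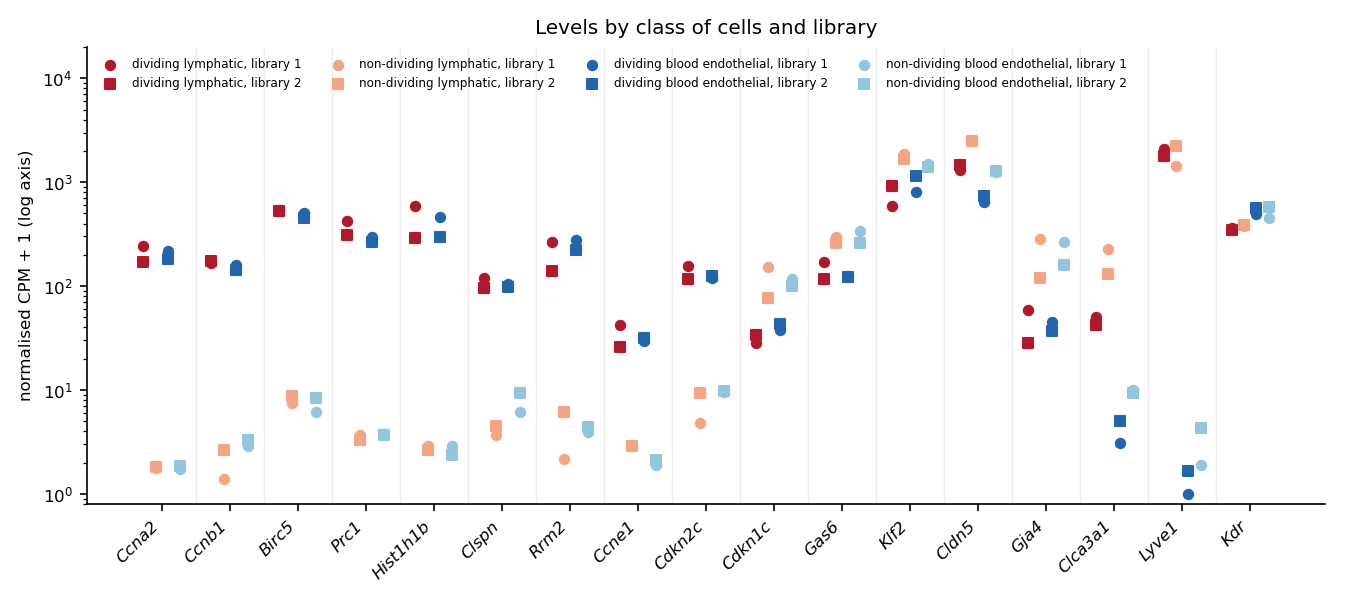
Normalised CPM + 1 on a log axis for named genes in dividing and non-dividing lymphatic cells (dark red and light orange) and blood endothelial cells (dark and light blue), each point the summed cells of library 1 (circle) or library 2 (square). Ccna2 to Cdkn2c were higher in dividing cells of both types, Cdkn1c to Clca3a1 were lower, and neither Lyve1 nor Kdr passed the test in lymphatic cells.

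Regulators of G1 were split. Of 34 genes of G1 entry, E2F and arrest, 16 were higher and 6 lower, with a median log2 change of 0.38. The higher ones included the cyclin E genes Ccne1 (41.0 and 25.0 CPM against 1.92 and 1.86 CPM, log2 change 3.99, adjusted p = 3.01e-06) and Ccne2 (log2 change 3.89), and E2f1, E2f7, E2f8 and Rbl1, with log2 changes of 2.42, 2.39, 5.34 and 2.55. Without library 1 the change of Ccne2 was 3.23, and without library 2 those of E2f1 and E2f8 were 3.35 and 4.14. Non-dividing cells held 3 and 3 UMIs of E2f8, so that its fold rests on few molecules. D-type cyclins moved little and in both directions: Ccnd1 and Ccnd3 were higher, by 0.37 and 0.69, and Ccnd2 was lower, by -0.49. The call of Ccnd1 was lost under DESeq2's size factors and its Wald test and in thinned cells, and its direction turned when capillary-type cells alone were compared, at -0.30 (adjusted p = 0.119).

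Inhibitors of cyclin-dependent kinases differed by gene. Cdkn2c, an INK4 inhibitor of CDK4 and CDK6, was at 157 and 115 CPM in dividing cells against 3.84 and 8.28 CPM (log2 change 4.29, SE 0.242, adjusted p = 2.33e-08, with 3.70 and 5.13 when library 1 or 2 was left out), and Cdkn2d, another INK4 member, at 159 and 88.1 CPM against 16.5 and 14.1 CPM (log2 change 2.94). Cdkn1c (p57) was lower, at 27.3 and 32.8 CPM against 153 and 74.9 CPM (log2 change -1.75, adjusted p = 0.000536, and -2.46 without library 2). Cdkn1b (p27) did not pass, at 62.1 and 68.8 CPM against 67.5 and 64.1 CPM, and neither did Cdkn1a (p21), with a log2 change of -0.62 (adjusted p = 0.164), though it was lower within the capillary-type cells described below, with -1.81 (adjusted p = 0.000957). The other lower genes of this list were the antiproliferative genes Btg1 and Btg2, the growth arrest gene Gas6, the stress gene Gadd45b and Ccnd2, with log2 changes between -1.20 and -0.49.

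Single cells differed in their place in the cycle. After thinning to 5000 UMIs, dividing lymphatic cells held medians of 17 and 9.5 UMIs of the S phase list and 64 and 44.5 UMIs of the combined G2, M and spindle lists, against 3 and 2 UMIs in non-dividing lymphatic cells of both libraries. The mitotic sum covered 76 genes, since Stmn1, Tuba1b, Tuba1c, Tubb5 and Tubb4b were left out of it. The S phase sum covered 45 genes. More S phase than mitotic UMIs were found in 17.5% of dividing cells of library 1 (7 of 40) and 22.9% of library 2 (22 of 96), and in 19.8% and 21.2% of dividing blood endothelial cells. All 136 dividing cells had 5000 UMIs or more. Among non-dividing lymphatic cells, 4.56% and 9.51% held 10 or more S phase UMIs, so the rule leaves some cells with replication transcripts in the non-dividing class. Mki67 and Top2a, which chose the cells, are known to be transcribed mostly late in the cycle.

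**Figure D4:**
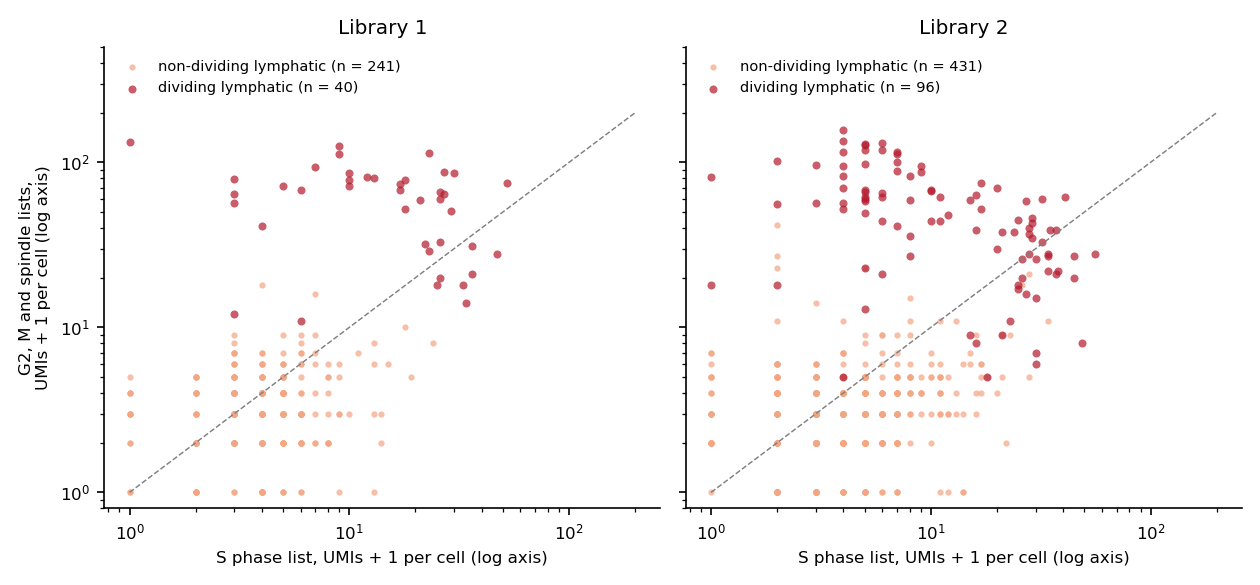
Each point is a lymphatic cell thinned to 5000 UMIs, with the UMIs of the S phase list (horizontal) and of the G2, M and spindle lists (vertical), plus 1, on log axes; dark red, dividing; light orange, non-dividing; dashed, equal counts. Dividing cells below the line, 7 in library 1 and 22 in library 2, held more S phase than mitotic UMIs, and most others lie far above it. The vertical sum leaves out Stmn1, Tuba1b, Tuba1c, Tubb5 and Tubb4b.

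Growth and metabolism genes changed less, beside background shares of 12.7% higher and 7.98% lower over all genes. Of 26 genes of ribosome biogenesis, 10 were higher and none lower, with a median log2 change of 0.43; the box C/D proteins Nop58 and Nop56 were at 163 and 143 CPM against 65.6 and 68.7 CPM (log2 change 1.16) and at 132 and 126 CPM against 51.8 and 64.1 CPM (log2 change 1.12). Of 17 tested glycolysis genes, 6 were higher, all of them enzymes between Tpi1 and Ldha in the pathway, with log2 changes between 0.64 and 0.81. Gapdh was at 1267 and 1186 CPM against 643 and 773 CPM (log2 change 0.79, adjusted p = 9.76e-05). Of 17 genes of fatty acid oxidation, Acadm and Eci1 were lower and none higher, with a median of 0.06, and both of those calls were lost when cells were thinned. With division in blood endothelial cells 9 of the 26 ribosome genes and 5 of the 17 glycolysis genes were higher and none lower. Of the 17 fatty acid oxidation genes 2 were higher and 3 lower there, beside 12.9% higher and 13.4% lower over all genes. No gene of these lists was called in the interaction test described below.

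Lymphatic genes were described in the same fit. Of 20 tested transcription factors of lymphatic identity none was higher and 7 were lower, with a median log2 change of -0.35, beside a background of 7.98% lower over all genes. Blood endothelial cells gave the same counts with division, 7 of 20 lower and none higher, with a median of -0.41. There the background was 13.4% lower, and no gene of this list was called in the interaction test described below. The flow-responsive factors Klf2 and Klf4 were at 593 and 914 CPM against 1884 and 1673 CPM (log2 change -1.25, adjusted p = 8.85e-05) and at 408 and 464 CPM against 916 and 1059 CPM (log2 change -1.19). Foxc2, a factor of valves and collecting vessels, was at 34.8 and 33.4 CPM against 140 and 55.5 CPM (log2 change -1.28, adjusted p = 0.00197, and -1.99 without library 2). Foxc1, Nfatc1 and Foxo1 were among the other lower factors. Sox18 and Nr2f2, which act upstream of Prox1, did not pass, with log2 changes of -0.24 and -0.11. Of the genes that chose the cells, Prox1 was at 329 and 273 CPM in dividing cells and 536 and 403 CPM in non-dividing ones, Mmrn1 at 992 and 970 against 1039 and 1242 CPM, and Reln at 181 and 240 against 216 and 317 CPM.

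Some markers of vessel types were lower, and some of them were also lower with division in blood endothelial cells. Of 19 valve genes 10 were lower and none higher, with a median log2 change of -0.61, among them the connexin Gja4 at 58.4 and 27.6 CPM against 282 and 118 CPM (log2 change -2.20, adjusted p = 3.64e-06) and the tight junction gene Cldn5 at 1296 and 1468 CPM against 2485 and 2499 CPM (log2 change -0.85). Of 16 collecting vessel genes 6 were lower and 1, the water channel Aqp1, higher, with a median of -0.24. With division in blood endothelial cells 8 of the 19 valve genes were lower, with a median of -0.47, and 8 of the 16 collecting genes, with a median of -0.68. No gene of the valve list was called in the interaction test described below. Of 14 tested capillary genes 3 were higher and 5 lower, with a median of -0.18. The capillary genes that rose were Ptx3, Itih5 and the mannose receptor Mrc1, with log2 changes of 0.81, 0.93 and 0.72. Those that fell included ceruloplasmin, Cp, at 48.5 and 34.9 CPM against 183 and 107 CPM (log2 change -1.74), and Fgl2 at 807 and 835 CPM against 1694 and 1951 CPM (log2 change -1.15).

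Since dividing cells were richer in Lyve1-alone cells, the comparison was repeated within capillary-type cells, those with a UMI of Lyve1 and none of Clca3a1 or Cldn11, a restriction chosen after seeing the data. It used 21 and 61 dividing and 51 and 205 non-dividing cells, and 805 genes were higher (7.55% of 10664) and 357 lower (3.35%). Of the 1408 higher genes of the whole class 780 were called higher again, 55.4%, and of the 886 lower genes 293, 33.1%. The restriction was on raw UMIs, of which dividing lymphatic cells held more, and it left fewer cells in both classes. The part of either in the lost calls was not tested. The mitotic and spindle lists kept 25 and 55 higher members, replication 39 of 45. Among lymphatic lists, 2 of the transcription factors, Klf2 and Klf4, 3 of 18 tested valve genes and 3 of 15 tested collecting genes were lower, and 2 collecting genes, Nts and Selp, were higher. Foxc2 had a log2 change of -0.29 there (adjusted p = 0.685) and Gja4 one of -1.89 (adjusted p = 0.000155). The capillary list had 5 lower and 0 higher members there, so the rises of Ptx3, Itih5 and Mrc1 were not called within capillary-type cells.

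The growth factor receptors Flt4, Kdr and Nrp2 were close between the classes, while some other members of their list were lower. Of 24 tested genes of growth receptors and ligands 5 were lower and none higher, with a median log2 change of -0.17, beside 7.98% lower over all genes. In blood endothelial cells 11 of the 24 were lower with division and 1 higher, with a median of -0.32, beside 13.4% lower over all genes. Flt4 was at 420 and 462 CPM in dividing cells and 342 and 476 CPM in non-dividing ones, Kdr at 358 and 346 against 377 and 383 CPM, and Nrp2 at 621 and 649 against 509 and 714 CPM, and none of the 3 passed. Ramp2, the partner of the adrenomedullin receptor, was at 772 and 746 against 1127 and 937 CPM (log2 change -0.43, adjusted p = 0.00267), and the receptor Tie1 at 162 and 169 against 251 and 222 CPM (log2 change -0.50). Adm, the ligand adrenomedullin, had 0 and 3 UMIs in dividing cells and 62 and 30 in non-dividing ones. The lower calls of the list were Tie1, Tek, Ramp2, Adm and Met.

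Signalling genes that passed were mostly lower, beside background shares of 7.98% lower and 12.7% higher over all genes. In the Notch list Nrarp was higher and Hes1, Hey1 and Hes6 were lower of 19 tested. Hes6, with a log2 change of -1.08, was at -1.69 without library 2. Of 23 tested TGF-beta and BMP genes 3 were lower (Tgfbr2, Acvrl1, Id3), of 20 Wnt genes 3 (Fzd6, Tcf7l2, Dkk3) and of 23 guidance genes 4 (Sema6a, Plxna4, Efnb2, Ephb4), with none higher in these 3 lists. Efnb2, an ephrin of arteries and lymphatic valves, was at 36.0 and 44.3 CPM against 105 and 74.3 CPM (log2 change -1.09, adjusted p = 0.00293). Of these 14 signalling calls, Hey1 alone was called again in capillary-type cells. Dividing blood endothelial cells had 8, 10, 4 and 11 lower members in the Notch, TGF-beta and BMP, Wnt and guidance lists, and none higher. Their background was 13.4% lower over all genes. No gene of these lists was called in the interaction test described below.

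Most junction and matrix genes that passed were lower, beside background shares of 7.98% lower and 12.7% higher over all genes. Of 18 tested junction and leukocyte entry genes 4 were lower (F11r, Cldn5, Jup and the sphingosine phosphate exporter Spns2) and none higher. Spns2 was at 129 and 106 CPM against 215 and 180 CPM (log2 change -0.76, adjusted p = 0.00098). Of 33 tested matrix genes 7 were lower and 1, Sparc, higher. The integrin subunit Itgb4 was at 18.6 and 12.5 CPM against 94.0 and 48.6 CPM (log2 change -2.14, adjusted p = 1.92e-05), and Mmrn2 at 78.3 and 59.9 against 154 and 141 CPM (log2 change -1.13). With division in blood endothelial cells 4 of the 18 junction genes and 15 of the 33 matrix genes were lower, and 1 matrix gene was higher. The background there was 13.4% lower over all genes. The interaction test described below called no junction gene. It called 3 matrix genes, with a more positive change in lymphatic cells.

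Immediate-early genes, which cells switch on within minutes of a stimulus such as tissue dissociation, were the list with the largest share of lower members. Of 22 genes 16 were lower and none higher, with a median log2 change of -0.98. Blood endothelial cells also had 16 of 22 lower and none higher with division, with a median of -0.59. No gene of this list was called in the interaction test described below. Fos was at 684 and 716 CPM in dividing cells against 1763 and 1531 CPM (log2 change -1.25, adjusted p = 6.5e-05) and Junb at 322 and 586 against 1223 and 1291 CPM (log2 change -1.55). Within capillary-type cells 12 of the 22 were lower. The heat shock genes Hspa1a and Hspa1b did not pass. They were at 2.49 and 130 CPM and at 0 and 47.4 CPM in dividing cells, far higher in library 2 than in library 1 in either class.

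Of 24 interferon genes 3 were higher, Rsad2, Isg15 and Tap1, and none lower, a share of higher genes near the 12.7% over all genes. Rsad2 was at 78.3 and 46.9 CPM against 3.45 and 24.4 CPM (log2 change 1.84, adjusted p = 0.0102). When barcodes with markers of other cells were left out, its log2 change turned to -0.48 (adjusted p = 0.75). It was 0.91 without library 1 and 4.27 without library 2, and within capillary-type cells no gene of the list was called higher and 4 were called lower.

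The largest falls among well-detected genes were of mixed kinds. Mfap2, a microfibril protein, was at 7.46 and 10.4 CPM in dividing cells and 164 and 45.3 CPM in non-dividing ones (log2 change -3.17, adjusted p = 0.00194). The histone demethylase Kdm5b was at 3.73 and 5.73 against 49.9 and 36.4 CPM (log2 change -2.99, adjusted p = 5.51e-06), and within capillary-type cells it fell by 2.38 on the log2 scale. In the dividing sum of library 1, 3 UMIs equal 3.73 CPM, so the folds of Kdm5b and Mfap2 rest on few UMIs there. Tcp11l2 and Tmem86a fell by 1.94 and 1.90. Pdlim3 and Slfn5 fell by 1.99 and 2.32, and Slfn5 and Mfap2 did not pass within capillary-type cells. The size of the Mfap2 and Slfn5 falls differed by library, with log2 changes of -2.09 and -1.31 without library 1 and -4.35 and -4.20 without library 2. Esm1, a tip cell gene of blood vessels, was also called but had only 0 and 1 UMIs in dividing and 7 and 18 in non-dividing lymphatic cells, so no fold is given.

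The division contrast was then compared with that of blood endothelial cells, whose dividing cells had 1428 genes higher (12.9%) and 1483 lower (13.4%) than their non-dividing cells. Of the higher lymphatic genes 1038 were also called in blood endothelium, 73.7% of the lymphatic and 72.6% of the blood calls. Of the lower genes 476 were, 53.7% and 32.1%. A test of the difference between the contrasts, the interaction term of the same fit, called 24 genes with a more positive change in lymphatic cells (0.216%) and 13 with a more negative one (0.117%). Without the library term it called 0 in each direction, with 736 genes at an unadjusted p under 0.05, while DESeq2's Wald test with that term called 19 and 14.

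**Figure D5:**
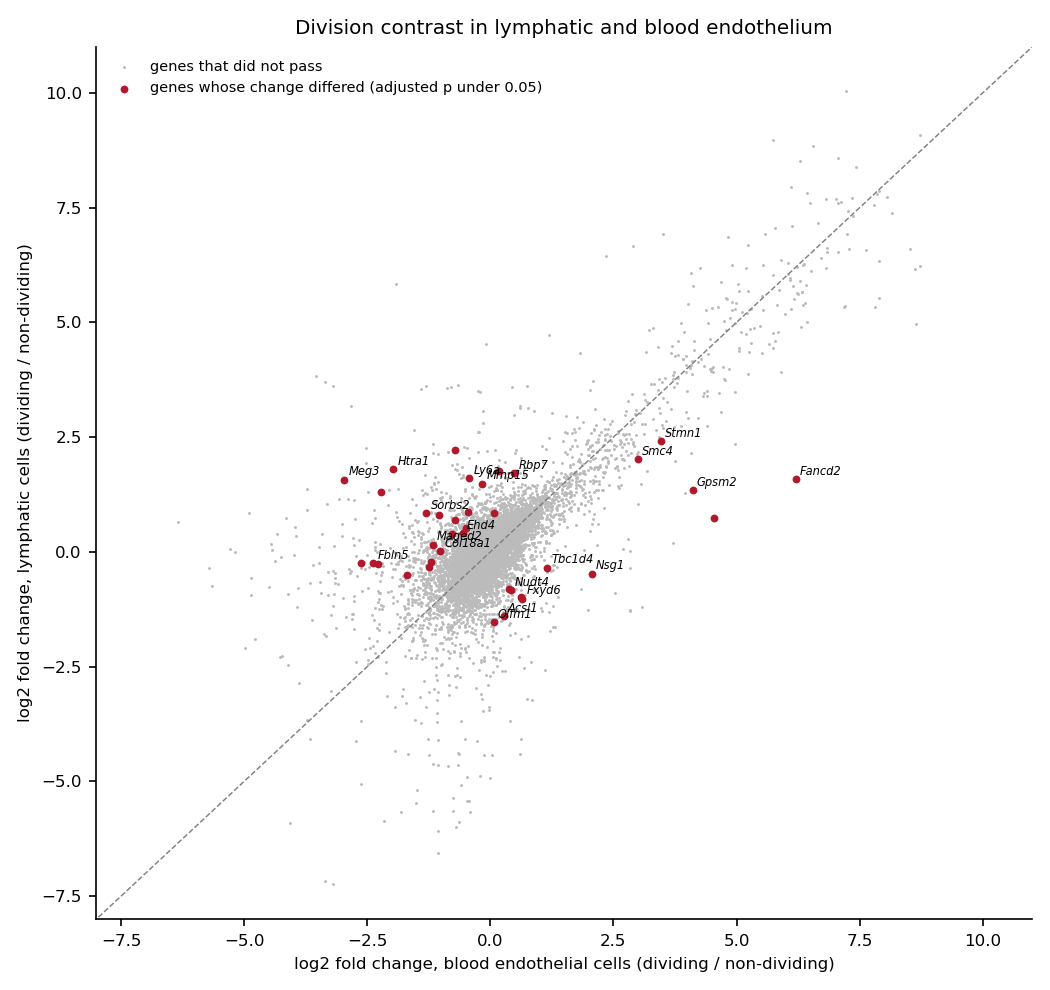
Log2 fold change of dividing against non-dividing cells in blood endothelium (horizontal) and lymphatic endothelium (vertical) for all tested genes; red, the 37 genes whose change differed between the types; names, the 10 with the smallest adjusted p in each direction; dashed, equal change. Most strongly raised genes lie near the line, and the named genes Stmn1, Smc4, Gpsm2 and Fancd2 lie below it.

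Some cycle genes rose less in dividing lymphatic cells. Smc4, a condensin subunit, was at 467 and 403 CPM in dividing and 102 and 110 CPM in non-dividing lymphatic cells, and at 429 and 427 against 57.1 and 50.3 CPM in blood endothelial cells, so the dividing levels were close and the non-dividing lymphatic level was higher (difference of log2 changes -0.98, SE 0.15, adjusted p = 0.0154). Stmn1, a microtubule destabiliser, was at 1827 and 1298 against 311 and 266 CPM in lymphatic cells and 1480 and 1353 against 126 and 131 CPM in blood endothelial cells (difference -1.04, adjusted p = 0.0154). Gpsm2, which orients the spindle, was at 89.5 and 63.1 against 24.6 and 31.5 CPM and at 21.2 and 15.2 against 1.31 and 0.733 CPM (difference -2.76, adjusted p = 0.0225, and -1.61 without library 2). In all 3 the non-dividing lymphatic cells already held more of the RNA than non-dividing blood endothelial cells.

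Other interaction genes differed in direction or in size. Nsg1, an endosomal protein, was at 227 and 181 CPM in dividing and 367 and 215 CPM in non-dividing lymphatic cells but at 79.4 and 70.4 against 17.8 and 18.1 CPM in blood endothelial cells (difference -2.53, SE 0.232, adjusted p = 0.000709). Ly6a, a surface antigen, was at 42.3 and 39.1 against 14.6 and 12.6 CPM in lymphatic cells and 658 and 480 against 887 and 643 CPM in blood endothelial cells (difference 2.03, SE 0.199, adjusted p = 0.000797). Fbln5, an elastic fibre protein, fell in dividing blood endothelial cells, at 104 and 52.9 against 494 and 305 CPM, and was at 291 and 284 against 320 and 360 CPM in lymphatic cells (difference 2.13). Ly6a is abundant in blood endothelium. The Ly6a interaction was lost when barcodes with markers of other cells were left out and when cells were thinned, while those of Nsg1, Fbln5 and Sorbs2 were not.

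Surface tags, which took no part in choosing the cells, gave values for 97.5% and 92.9% of filtered cells. With 2 libraries against 2 an exact permutation test cannot go below a p of 0.333, so no call was made. ICAM1 averaged 48.4 and 66.9 tags per dividing lymphatic cell against 33.7 and 52.4 per non-dividing cell, ratios of 1.44 and 1.28, while its RNA was at 55.9 and 378 CPM against 109 and 472 CPM (adjusted p = 0.111). As a share of the 7 antibodies the ICAM1 ratios were 1.06 and 0.869, and over cells with 5000 to 20000 mRNA UMIs they were 1.20 and 0.871. The excess per cell thus did not hold in library 2 by either of these measures.

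VEGFR2, the protein of Kdr, averaged 3.65 and 5.99 tags per dividing cell against 2.87 and 3.22, ratios of 1.27 and 1.86. Between 5000 and 20000 UMIs the ratios were 1.13 and 1.37, and as a share 0.943 and 1.26. CXCR4 averaged 1.48 and 1.43 against 1.55 and 2.18, near the rat IgG2a isotype control at 0.75 and 2.10 against 1.11 and 1.52, and VCAM1, at 1.25 and 2.06 against 1.53 and 1.60, was also near it. A single non-dividing cell held 68 CXCR4 tags in library 1, and another held 219 in library 2. Without the highest cell of each class and library the CXCR4 means were 1.28 and 1.27 against 1.27 and 1.60. CD45, a leukocyte protein, averaged 1.2 and 13.6 against 1.14 and 1.73; in library 2 a single cell held 958 tags and the mean without it was 2.90. With that cell, CD45 made up 14.7% of the tags of dividing cells in library 2 against 2.75% of those of non-dividing cells, which lowers the share of every other antibody there, ICAM1, VEGFR2 and CXCR4 included. The Vcam1, Cxcr4 and Kdr RNAs did not pass, and Ptprc, the gene of CD45, was too low to test.

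Markers of other cells were looked for in the dividing class. Fibroblast markers summed to 3 or more UMIs in 15% and 17.7% of dividing cells against 6.37% and 4.58% of non-dividing lymphatic cells. Their summed level was 68.0 and 93.9 CPM against 63.8 and 58.3 CPM, with Lum and Pdgfra at 0 in the dividing cells of both libraries. In thinned cells 2.5% and 4.17% of dividing against 3.32% and 0.928% of non-dividing cells reached 3 UMIs, so the order differed between libraries. The pericyte and smooth muscle list summed to 8.81 and 100 CPM against 50.6 and 32.5 CPM, with 9 of 11 markers at 0 in library 1 and none at 0 in library 2. The immune list summed to 21.4 and 23.6 CPM against 10.7 and 18.3 CPM, with C1qa, Cpa3, Mcpt4, Cma1, Cd3e and Cd79a at 0 in both libraries. Keratinocyte, erythroid, and Schwann and muscle markers each summed to between 1.26 and 6.16 CPM. Blood endothelial markers summed to 594 and 698 CPM against 821 and 659 CPM, and 7 of 18 and 4 of 18 were at 0. They reached 3 or more UMIs in 90% and 85.4% of dividing against 72.5% and 66.7% of non-dividing lymphatic cells, and in thinned cells in 32.5% and 36.5% against 54.8% and 41.8%. Of these 18, Cd34 and Aqp1 were called higher in dividing lymphatic cells and Esm1, Emcn, Ackr1 and Hey1 lower. Cd34 was at 57.2 and 86.0 CPM against 53.3 and 55.7 CPM, and the sialomucin Emcn had a log2 change of -0.72 (adjusted p = 0.00166).

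An alternative left out lymphatic barcodes with 3 or more UMIs of the pericyte, immune, fibroblast, keratinocyte or Schwann and muscle list, or of the blood endothelial genes Flt1, Plvap, Cd34, Sox17, Esm1, Apln and Rgcc together. It removed 18 of 40 and 46 of 96 dividing cells, and 100 of 251 and 124 of 459 non-dividing lymphatic cells. The threshold was on raw UMIs, of which dividing cells held more. This alternative left 762 genes higher and 649 lower, and the share of dividing cells at 12% and 11.7%. The part of these markers in the other results was not tested beyond that comparison.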

How the data were processed

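Single-cell 3' mRNA and antibody tag libraries of 2 biological replicates were used. The authors deposited mRNA counts as gene by cell tables of UMI counts made with Cell Ranger and mm10, with Seurat 3.0.2 also named, per the submitters' processing notes; the deposited tag counts are whole numbers per antibody and barcode, and the sources used here do not say whether they are UMIs or reads. Cells were filtered and classed as in the report. The members and the gene lists were chosen with earlier results of these data known. Symbols that several gene IDs share, such as Ccl21a and Aldoa, were not tested. No doublet caller was run; barcodes with 3 or more UMIs of another cell type's marker list (for blood endothelium, of 7 of its 18 markers) were left out in an alternative.

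UMI counts were summed per class and library and fitted with edgeR 4.0.16 (TMM, filterByExpr, quasi-likelihood test, class plus library, 11113 genes, 3 residual degrees of freedom, Benjamini-Hochberg adjustment over all genes) in R 4.3.3 with limma 3.58.1; DESeq2 1.42.0 was an alternative. Library was kept as a block because classes of a library come from the same replicate sample; their deviations from the class means correlated at 0.158 to 0.38. With library as a term, p-values rest on how far the differences between classes varied between these 2 libraries, pooled over the 4 classes. The makeup of animals is not given, so they do not measure the spread between animals. Cells of a class and library were summed and never counted as replicates. On simulated counts over 10963 genes with 200 changed, the dividing against non-dividing lymphatic comparison found 98% of 4-fold and 78% of 2-fold changes, with 7.37% of calls false. The changed genes were drawn from better-detected genes alone, so the shares found do not cover low-count genes. The simulated spread was the one the fit had estimated, and far more genes, 2294, were called in the data. Intervals cover counting error only. Python 3.11.15, numpy 2.4.6, scipy 1.17.1 and matplotlib 3.10.9 were used for the rest.

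Genes were named by a rule: list members with the smallest adjusted p (up to 3 a list), all G1 and arrest genes, the largest rises and falls at an average log2 CPM of 5 or more with 1 direction in both libraries, and the 10 strongest interactions in each direction. Pttg1, other list members named beside a count of calls or as known regulators, and the genes shown for their promoters were named after their values were seen. The filtered tag barcodes matched 97.5% and 92.9% of cells, and 7.91% and 11.5% of tag counts were unmapped and left out. The submitters' protocol also describes adult and wounded samples, which were not analysed here.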

Additional observations from a re-analysis of the deposited data

Results flagged for a closer look

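The change with division differed between lymphatic and blood endothelial cells by the interaction term of the edgeR fit for 37 genes, and the 10 strongest in each direction are given as the lymphatic minus the blood log2 change. All 20 lost their call when the library block was taken out, and what lies behind the differences was not tested.

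More positive in lymphatic cells were Ly6a (2.03, adjusted p = 0.000797), Sorbs2, a cytoskeletal adaptor (2.14, adjusted p = 0.00365), Rbp7, a retinol-binding protein (1.23, adjusted p = 0.0101), Fbln5 (2.13), Col18a1, a basement membrane collagen (1.03), the noncoding RNA Meg3 (4.55), the membrane protease Mmp15 (1.65), the secreted protease Htra1 (3.77), Ehd4 (0.97) and Maged2 (1.33). Sorbs2 was at 73.3 and 74.5 CPM in dividing and 30.7 and 48.8 CPM in non-dividing lymphatic cells, against 46.6 and 47.1 and 119 and 110 CPM in blood endothelial cells. Col18a1 was at 613 and 581 against 544 and 631 CPM in lymphatic cells and at 174 and 163 against 354 and 327 CPM in blood endothelial cells. Rbp7 was higher with division in both types, by 1.71 and 0.49. The Meg3 difference was 3.65 without library 1 and 6.19 without library 2, with 0 and 4.38 CPM in dividing blood endothelial cells.

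More negative in lymphatic cells were Nsg1 (-2.53, adjusted p = 0.000709), the ion transport regulator Fxyd6 (-1.66), Stmn1 (-1.04), Nudt4 (-1.26), Smc4 (-0.98), Gpsm2 (-2.76), Olfm1 (-1.60), Acsl1 (-1.68), Tbc1d4 (-1.50, and -0.79 without library 2) and the repair gene Fancd2 (-4.61). Olfm1, a secreted protein, was at 145 and 133 CPM in dividing and 414 and 390 CPM in non-dividing lymphatic cells, against 13.2 and 8.42 and 9.18 and 10.5 CPM in blood endothelial cells. Fancd2 rested on near silence in non-dividing blood endothelial cells, at 0.146 and 0.122 CPM, and its difference was -3.17 without library 1 and -2.00 without library 2.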

How the results depend on the processing

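The count of higher genes (1408) became 879 in DESeq2's Wald test, 566 in cells thinned to 5000 UMIs, 762 without mixed barcodes, 564 at 5% mitochondrial UMIs and 805 in capillary-type cells, an alternative chosen after seeing the data. The count of lower genes (886) became 1446 without a low-count filter, 554 in the Wald test, 331 thinned, 259 at 5% mitochondrial UMIs, 357 in capillary-type cells and 1421 when division was read from Cdk1, Birc5, Tpx2 and Cenpf. Higher genes were 61.4% of calls, and 45.7% without the filter and 47.9% by those 4 genes. The interaction counts (24 and 13) became 145 and 161 without the filter, 51 and 23 at 5 lymphatic UMIs, 9 and 5 thinned, 6 and 25 without mixed barcodes, 6 and 7 at 5% mitochondrial UMIs and 40 and 42 by the 4 genes, with 21 negative under DESeq2's size factors. Higher genes were 64.9% of the interaction calls and 19.4% without mixed barcodes, where the median of all genes shifted by -0.15.

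Without the replicate block, which pairs classes of a library, 1109 genes were higher, 513 lower and 0 and 0 called in the interaction. Of 166 named values 43 lost their call. The other 123 kept their status, which for some was not called in the main fit either.

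Directions of called values turned for Ccnd1 (-0.30), Clca3a1 (0.0026, by construction) and Nsg1 (0.12) in capillary-type cells, for Isg15 (-0.30) and the Olfm1 difference (0.12) in thinned cells, and for Meg3 (-0.0042), Rsad2 (-0.48) and Trp53 (-0.0063) without mixed barcodes. Among values that did not pass, Vcam1 (-2.20), Mycn (-1.44) and Cxcr4 (-0.68) turned without library 2. The cause was not tested.

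The mean dividing share (14.4%) was 10.7% thinned, 11.9% without mixed barcodes and 21.7% at 5% mitochondrial UMIs. Clca3a1 was in 21.8% of dividing cells when classes were drawn from thinned counts, 23.9% when thinned cells kept their class and 22% at 5% mitochondrial UMIs, and Cldn11 in 9.24%, 9.17% (the same thinned settings), 19.4% (division at 5 UMIs), 12.3% (no mixed barcodes) and 14.7% (5% mitochondrial). As a share of antibodies the tag ratios were 0.967 for ICAM1, 0.577 for CXCR4 and 1.1 for VEGFR2. This CXCR4 ratio includes the non-dividing cells with 68 and 219 tags. ICAM1 was 1.04 at matched depth and 1.01 in capillary-type cells, and CXCR4 was 1.28 without mixed barcodes. Leaving out a library gave dividing shares of 13.1% to 15.7%.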
